A study of Mus musculus with 12 samples.

Results

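The late days of a mouse embryoid body (EB) time course were set against the early days, gene by gene. EBs are aggregates of embryonic stem (ES) cells that differentiate without a directing signal. The study hybridised 12 arrays with 2 channels each, and all 12 enter the comparison: 6 late arrays (3 of day 15 and 3 of day 21) against 6 early ones (3 of day 4 and 3 of day 8), chosen by the day in the sample titles. In 1 channel every array held total RNA of undifferentiated R1 mouse ES cells, which had been kept on gelatin with leukemia inhibitory factor. The other channel held total RNA of EBs that had been dissociated and plated in DMEM with fetal bovine serum for 4, 8, 15 or 21 days. No genotype, drug or sorting step is named for any group, and the groups share the R1 background and the serum. What is compared is the mean of the late days' log ratios of EB over ES minus the mean of the early days' log ratios, so the ES channel drops out only if the ES RNA behaved alike on all arrays, which the labels do not state. Nothing in the labels ties the 3 arrays of a day to separate cultures. The p-values therefore cover the spread among these arrays alone, and that spread may be technical.

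For the deposited ratio, which channel is the numerator is not settled, and the reading used here is only the likely one. The titles and dye fields put ES in Cy5, whereas the label protocols put ES in Cy3 and EB in Cy5. Values are printed with the deposited sign and read as EB over ES, following the label protocols, so this reading opposes the titles. Under the opposite reading higher and lower trade places throughout, with the same p-values and counts. ES cell and yolk sac genes had been used to choose between the readings, so their direction here supports nothing. The log base was taken as 2, which the labels leave unstated, and no dye swap was made.

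ES cells hold themselves in an unspecialised state through a small circuit of transcription factors around Pou5f1, Nanog and Sox2. When aggregated they leave that state and form an outer layer of primitive and visceral endoderm, which secretes serum proteins as the yolk sac does, and inner derivatives of mesoderm and ectoderm. Plated EBs commonly grow out sheets of mesenchyme that lay down collagen, along with beating heart muscle, vessels and blood. ES cells also divide with a short first gap phase, which lengthens as they differentiate.

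The table held 11520 features with no missing value, which gave 9212 named genes and 1477 features without a single gene symbol, 10689 in all. Across features, late arrays correlated with each other by 0.392 to 0.818 and early arrays by 0.0052 to 0.614. The spread of single features was not generally smaller late. The standard deviation among the early arrays exceeded that among the late ones for 49.7% of features. Apart from the days, 96 features without a gene, at fixed places of the array, divided the arrays into 2 technical sets. They averaged -1.46 to -0.79 on day 4 array 3, day 8 arrays 2 and 3, day 15 array 3 and day 21 array 3 (set 2) and -0.31 to 0.07 on the other 7 (set 1). The places were picked because their mean moved between arrays, and the arrays were split at the largest gap in the means of these features. Both sets hold all 4 days, but set 1 has 1 array of day 8 and set 2 has 1 each of days 4, 15 and 21. Since the 96 features were chosen on these same values, that none of them was called between late and early tests nothing. Day 15 array 3 and day 8 array 3 stood apart from the other arrays of their period for several genes named below.

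Between early and late, 613 of the 10689 features (5.73%) changed at an adjusted p under 0.05 (limma, Benjamini-Hochberg over all features): 318 were higher late (2.98%) and 295 lower late (2.76%). An unadjusted p under 0.05 was reached by 2085 features. The increases were larger. The median difference was 0.64 among the features called higher and -0.48 among those called lower, against 0.0021 over all features. A difference of at least 1 was reached by 68 called features upward and 17 downward (0.795% of all features), and one of at least 2 by 6 upward and 0 downward. On 336 features (3.14%) the 6 late values did not overlap the 6 early ones, with 155 above (1.45%) and 181 below (1.69%). Among the called features, 133 of the higher and 143 of the lower were free of overlap. The total was 403 without day 4 array 1, 361 without day 8 array 1, 338 without day 8 array 2, 382 without day 15 array 1, 323 without day 15 array 2, 325 without day 21 array 1 and 404 without day 21 array 2. Without day 15 array 3 the number called higher went from 318 to 547, and within set 1 there were 621 higher among 959 calls, so the share of calls that were higher was 51.9% over all arrays, 62.0% without day 15 array 3 and 64.8% within set 1.

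**Figure D1:**
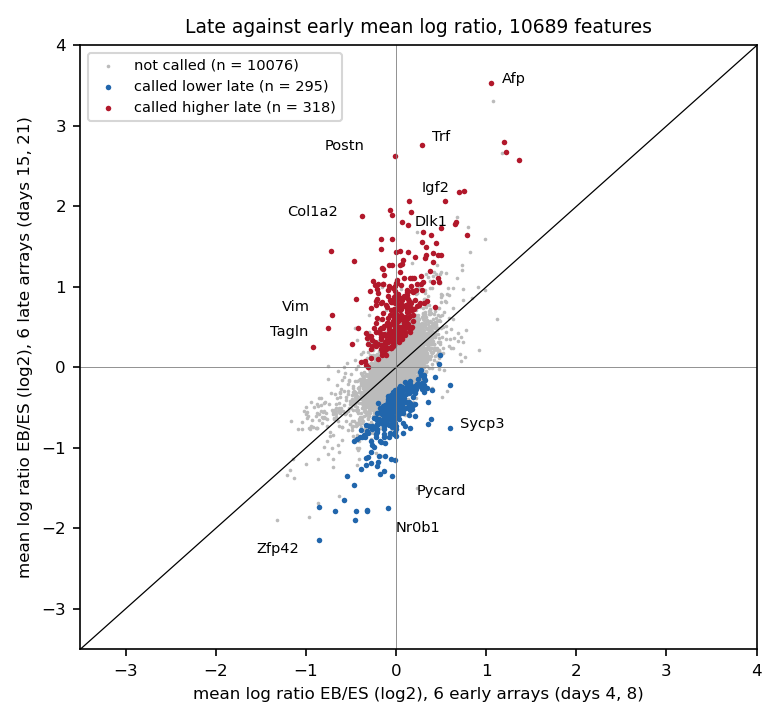
Mean log ratio of EB over ES (log2) on the 6 early arrays (horizontal) against the 6 late arrays (vertical), with 1 point per feature. Red points are the 318 features called higher late and blue points the 295 called lower. The diagonal marks equal levels. Called features lie mostly near 0 on the early axis and spread along the late axis, up to Afp and down to Zfp42.

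Of the 318 features called higher, 257 (80.8%) had an early mean within 0.25 of ES, and of the 295 called lower 241 (81.7%) did, against 89.5% of all features. Over the features called higher, the median day mean was -0.04 at day 4, 0.05 at day 8, 0.54 at day 15 and 0.69 at day 21. The features called lower went from 0.05 through -0.11 and -0.43 to -0.60. The outer steps were smaller, at a median of 0.12 from day 4 to day 8 and 0.13 from day 15 to day 21 among features called higher, and -0.16 and -0.18 among those called lower. Day means rose at each of the 3 steps for 140 of the features called higher (44.0%) and fell at each for 192 of those called lower (65.1%). The features were chosen for their late minus early difference, which favours the middle step and bears on the outer ones, so these medians and shares are a description.

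**Figure D2:**
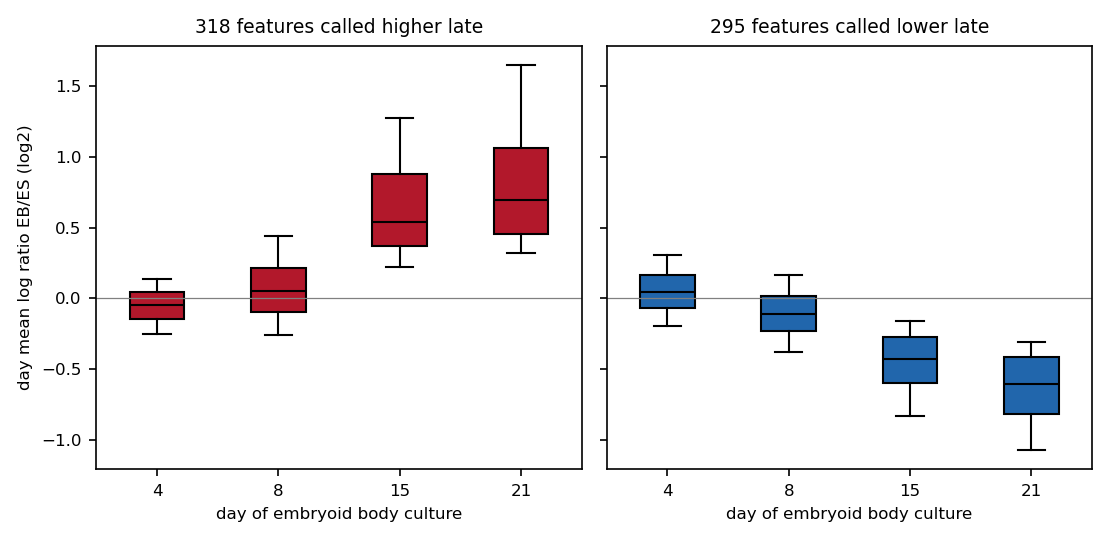
Day mean log ratio of EB over ES (log2) for the 318 features called higher late (left) and the 295 called lower late (right), by day of culture. Boxes span the quartiles with the median as a line, and whiskers reach the tenth and ninetieth percentiles. The median of the higher features goes from -0.04 to 0.69 and that of the lower ones from 0.05 to -0.60.

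Tested as single steps, the days gave few calls of their own. From day 4 to day 8 limma called 0 features (0%). From day 8 to day 15 it called 19 (0.178%), and from day 15 to day 21 it called 1 (0.00936%). An unadjusted p under 0.05 was reached by 746, 985 and 674 features in these steps, in that order. If nothing differed, about 534 would reach it. The 14 genes called higher from day 8 to day 15 were Postn, Col1a1, Col1a2, Col3a1, Igf2, Dlk1, Mest, Nnat, Igfbp4, Bmp4, Tagln, Anxa6, Tmsb4x and Maged2, and the 5 called lower were Upp1, Sycp3, Ldhb, Prps1 and Dis3. Postn gained 2.44 in that step (adjusted p = 2.45e-05) and Col1a2 2.39 (adjusted p = 0.00838), while Upp1 differed by -1.29 (adjusted p = 0.0336). The 19 calls of the middle step became 4 without day 15 array 1, 7 without day 8 array 2, 8 without day 15 array 2, 9 without day 8 array 1, 12 without day 21 array 2 and 126 without day 15 array 3. The 1 gene of the last step, Npff, encodes the precursor of a neuropeptide. It was 0.26 to 0.45 on the day 15 arrays and 1.15 to 1.28 on those of day 21 (difference 0.83, adjusted p = 0.0208), and no feature was called in that step without day 4 array 1, day 8 array 3, or any single array of day 15 or day 21 except day 21 array 3.

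Genes were grouped in 33 lists by tissue or process. The lists with the largest shares of members higher late were fibrillar and interstitial matrix (20 of 49 measured), smooth muscle and contractile cytoskeleton (7 of 20), the insulin-like growth factor (IGF) system (7 of 20), imprinted genes (11 of 34), and visceral endoderm and serum proteins (14 of 46). Lower late were 16 of 32 pluripotency genes, 10 of 36 genes of the nucleolus, and 20 of 77 of the cell cycle and DNA replication. Over all features 2.98% were called higher and 2.76% lower. Some genes belong to more than one list. The levels are those of whole cultures, in which fewer cells of a type and less RNA per cell cannot be told apart.

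**Figure D3:**
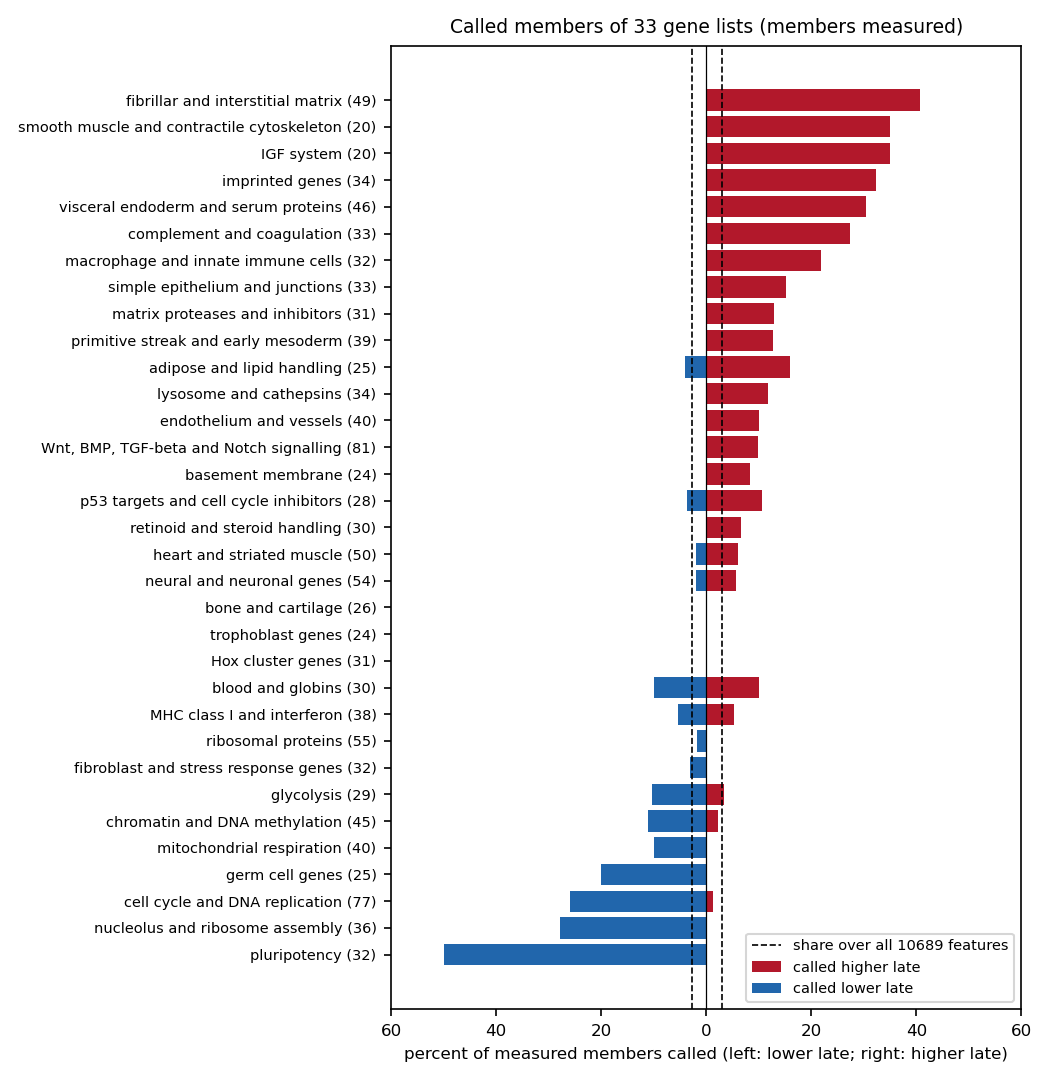
Percent of the measured members of each of 33 lists called higher late (red, to the right) and lower late (blue, to the left), with the number measured in parentheses. Dashed lines mark the shares over all 10689 features, 2.98% higher and 2.76% lower. Matrix, contractile, IGF, imprinted and serum protein genes stand at the top, and pluripotency genes, with 50% lower, at the bottom.

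Genes of the interstitial matrix, the fibrous network that mesenchymal cells secrete, gave the largest difference of the comparison. Postn encodes periostin, a matrix protein of mesenchyme that binds collagen. Its log ratio ran from -0.10 through a median of -0.003 to 0.12 on the early arrays and from 2.06 through 2.65 to 2.99 on the late ones. The 2 ranges lay far apart, with the day 15 array 3 value as the late minimum. The difference was 2.63 ± 0.11 (SE, 95% interval 2.39 to 2.88, adjusted p = 1.57e-07), the smallest adjusted p of all features. Col1a2, a chain of type I collagen, ran from -0.84 through -0.40 to 0.25 early and from 1.07 through 2.02 to 2.35 late, with no overlap. Its difference was 2.26 ± 0.23 (adjusted p = 2.41e-04). Both calls held whichever array was left out. Within set 1 the differences of Postn and Col1a2 were 2.785 and 2.05, and within set 2 they were 2.42 and 2.393.

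Of the fibrillar collagens, Col1a1 rose by 1.19 ± 0.11 (adjusted p = 1.54e-04) and Col3a1 by 1.37 ± 0.07 (adjusted p = 9.40e-07), both with no overlap. These are means over probes that disagreed: the 3 probes of Col3a1 differed between late and early by 3.53, 0.50 and 0.09, and those of Col1a1 by 2.57, 0.75 and 0.23, so the size of either gene's change depends on the probe. The type V chains, which set the width of collagen fibres, rose with them. Col5a1 was -0.45 to -0.04 early and 0.36 to 2.003 late, with a difference of 1.64 ± 0.18 (adjusted p = 3.62e-04). Col5a2 was -1.40 to -0.17 early and -0.26 to 2.12 late, a difference of 2.16 ± 0.31 (adjusted p = 0.00203). Only day 15 array 3 overlapped the early range of Col5a2, the 5 other late arrays reaching at least 1.51. The small proteoglycans that coat collagen fibres rose as well, Dcn by 1.33 (adjusted p = 0.00539) and Lum by 1.29 (adjusted p = 2.42e-04).

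The other called members were the cross-linking oxidases Lox (0.63) and Loxl1 (1.25), the collagen chaperone Serpinh1 (0.92), the microfibril proteins Mfap2 (1.19) and Mfap4 (0.69), Tgfbi (1.09), Fbln1 (0.75), Tnc (0.74), Thbs1 (0.50), Ccn2 (0.41), and the collagen chains Col16a1 (0.47) and Col6a3 (0.36). In all 43 of the 49 measured members had a difference above 0, 0 were called lower, and the list median was 0.32. Late values lay wholly above the early ones for 10 members, against 1.45% of all features. By step, the list median was -0.04 from day 4 to day 8, 0.22 from day 8 to day 15 and 0.18 from day 15 to day 21. Within set 1, 17 members were called higher. The count was 12 without day 15 array 2 and 13 without day 21 array 1. Sparc, a collagen-binding protein made in abundance by parietal endoderm, was at 0.72 ± 0.20 and missed the threshold (adjusted p = 0.0628).

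**Figure D4:**
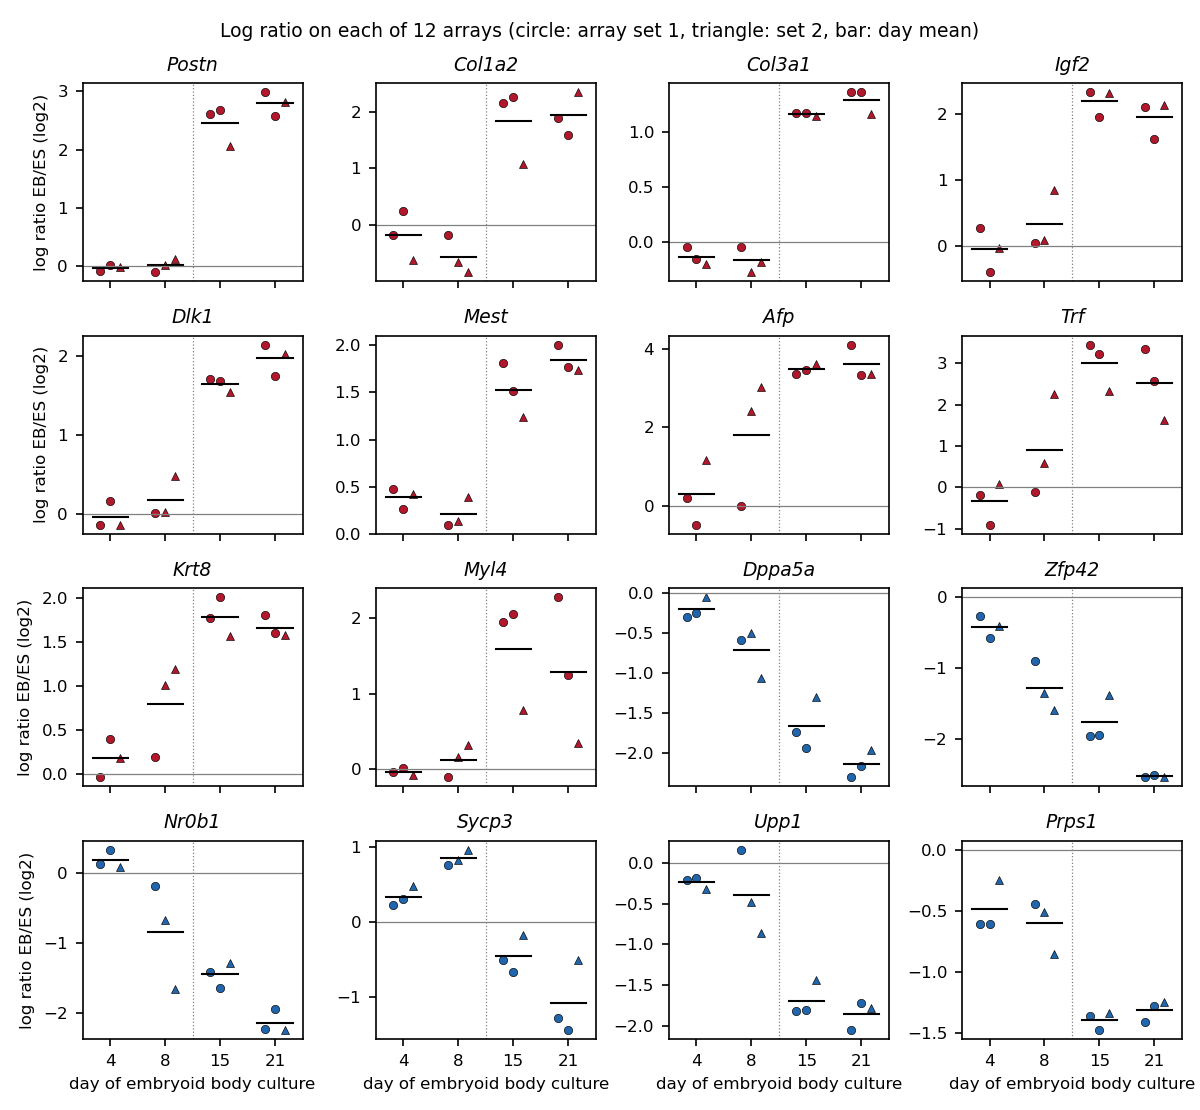
Log ratio of EB over ES (log2) on each of the 12 arrays for 16 genes, by day of culture. Circles are arrays of set 1, triangles arrays of set 2, bars are day means, and the dotted line parts the early from the late days. Postn and Col3a1 show 2 tight levels, whereas Afp and Trf were already high on day 8 arrays 2 and 3, and Myl4 was lowest late on the arrays of set 2.

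Of 24 measured genes of the basement membrane, the sheet under epithelia, 2 were called higher (8.3%, against 2.98% of all features). They were the type IV collagen chain Col4a5 (0.44, adjusted p = 0.00997) and Tinagl1 (0.85, adjusted p = 0.0176). Tinagl1 had already reached 1.08 to 2.12 on the day 8 arrays, and its call was lost without day 21 array 1 (adjusted p = 0.0548). Only 1 of the 2 probes of Col4a5 was called on its own. Matrix proteases were near the background in median (0.03) with 4 of 31 called: Mmp2, which degrades type IV collagen (0.78), Mmp14, a membrane-bound protease that activates Mmp2 (0.60), Mmp23 (0.39) and Adamts5 (0.39). The Mmp2 call was lost without day 8 array 1 (adjusted p = 0.0503). That of Mmp14 was lost when any one of 8 arrays was left out, with adjusted p between 0.0624 (day 21 array 3) and 0.0893 (day 8 array 2). The 4 calls became 2 without day 4 array 1 or 3, day 8 array 1 or 2, day 15 array 1 or 2, or day 21 array 1, and 2 after quantile normalization.

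Contractile and cytoskeletal genes had 7 of 20 higher late, against 2.98% of all features, and 0 lower. Tagln, an actin-binding protein of smooth muscle, was -0.94 through -0.81 to -0.39 early and -0.07 through 0.49 to 1.16 late, with no overlap. It rose by 1.24 ± 0.14 (adjusted p = 3.67e-04). Vim, the intermediate filament protein of mesenchymal cells, was -1.26 through -0.70 to -0.16 early and -0.05 through 0.75 to 0.92 late. The late low of -0.05 was day 15 array 3, and the ranges did not overlap. Vim rose by 1.35 ± 0.18 (adjusted p = 0.00117). Acta2, smooth muscle actin, rose by 0.99 (adjusted p = 0.0161), with adjusted p = 0.0516 without day 15 array 2 and 0.0532 without day 21 array 1. Tpm1 (0.88), Cnn2 (0.57), Zyx (0.49) and Mylk (0.30) were the others called, and the list median was 0.21. The count was 4 without day 15 array 2 and 4 without day 21 array 1. The list median was 0.28 within set 1 and 0.04 within set 2. For Vim and for the 2 later genes Afp and Sycp3 the 100 bases before the RefSeq start are shown, with motifs a script found in capitals on either strand, as examples of genes that lay away from the ES level on some or all early arrays: Vim below it on all 6, Afp far above it on 2, and Sycp3 above it on all 6. The Vim stretch lies at chr2:13574211-13574310 on the plus strand of GRCm38.p6 and holds a CCAAT box (CCAAT, read here as ATTGG) and a TATA box (TATAAA) 32 bases before the start.
Vim: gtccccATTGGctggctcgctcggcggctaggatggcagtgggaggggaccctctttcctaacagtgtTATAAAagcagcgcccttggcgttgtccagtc
In the same window TATAAA was present in 6.0% and CCAAT in 19.6% of 27025 RefSeq promoters.

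Imprinted genes, which are expressed from 1 parental copy and many of which govern fetal growth, were higher late with 11 of 34 measured and 0 lower. Igf2, the fetal growth factor that gives the IGF system its name, was -0.39 through 0.07 to 0.85 early and 1.61 through 2.12 to 2.32 late. Only day 8 array 3 exceeded 0.28 among the early arrays, and the ranges did not overlap. Igf2 rose by 1.93 ± 0.17 (95% interval 1.57 to 2.29, adjusted p = 7.94e-05). Dlk1, a membrane protein that restrains fat cell formation, was -0.14 to 0.48 early and 1.54 to 2.14 late, and rose by 1.74 ± 0.11 (adjusted p = 4.40e-06). Mest, a gene of growing mesoderm, was 0.10 to 0.48 early and 1.24 to 2.01 late, and rose by 1.39 ± 0.10 (adjusted p = 3.04e-05). H19, an untranslated RNA next to Igf2, was -0.24 to 1.31 early and 1.10 to 1.99 late. Its ranges overlapped through day 8 array 3, and its rise of 1.17 ± 0.26 (adjusted p = 0.021) was lost when any one of 5 arrays was left out, with adjusted p up to 0.0616 without day 15 array 2.

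Other imprinted genes were called higher as well. The cell cycle inhibitor Cdkn1c was -0.02 to 0.65 early and 0.68 to 1.00 late, with a rise of 0.62 (adjusted p = 0.00734, and 0.0516 after quantile normalization). Igf2r, the receptor that clears Igf2, rose by 0.83, and the neuronal genes Nnat and Ndn by 0.85 and 1.35. Gnas (0.35) and Slc22a18 (0.41) completed the called members with Dcn. The list median was 0.18, with steps of 0.10, 0.22 and -0.008 between the 4 days, so that the list had no further median gain after day 15. Members called numbered 8 to 13 when single arrays were left out.

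The IGF system had 7 of 20 measured members called higher, Igf2, Igf2r and 5 others. Igfbp1, a binding protein made by liver and decidua, stayed at -0.06 to 0.01 on 5 early arrays, with 0.85 on day 8 array 3, and was 0.26 through 1.86 to 2.74 late. It rose by 1.64 ± 0.25 (adjusted p = 0.00275), and its ranges overlapped only through day 8 array 3 and day 15 array 3. Igfbp4, another IGF-binding protein, rose by 0.97 (adjusted p = 4.61e-04). Igf1r, the signalling receptor, rose by 0.37, its adaptor Irs2 by 0.77 and the RNA-binding protein Igf2bp3 by 0.47. The list had a median of 0.21 (0.37 within set 1, 0.08 within set 2). It had 4 called without day 4 array 1 or 2, day 8 array 1 or 2, day 15 array 1 or 2, or day 21 array 1 or 2.

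Genes of visceral endoderm and of serum proteins included some of the largest differences, and the early arrays disagreed about them. Afp, the fetal counterpart of serum albumin, was -0.48 through 0.69 to 3.01 early and 3.34 through 3.41 to 4.10 late. Day 8 arrays 2 and 3 were at 2.42 and 3.01 and day 8 array 1 at 0.005, while all late arrays lay above every early one. Afp rose by 2.48 ± 0.43 (adjusted p = 0.00641), by 3.63 within set 1 and by 1.54 within set 2. Trf, the iron carrier of serum, was -0.91 through -0.01 to 2.25 early and 1.62 through 2.90 to 3.45 late, with a difference of 2.47 ± 0.40 (adjusted p = 0.00383), 3.48 within set 1 and 1.23 within set 2. Ttr, the thyroid hormone carrier, had a difference of nearly the same size, 2.23 ± 0.61, and missed the threshold (adjusted p = 0.0522), with early values from -1.33 to 2.98 and late values from 2.80 to 3.80. Apom, an apolipoprotein of high-density lipoprotein, was -0.01 to 1.76 early and 2.01 to 2.37 late, and rose by 1.44 ± 0.23 (adjusted p = 0.00411). Its difference was 0.92 after quantile normalization (adjusted p = 0.118) and 1.02 after scaling (adjusted p = 0.104), and that of Afp was 1.82 after scaling (adjusted p = 0.0905).
The Afp promoter stretch lies at chr5:90490614-90490713 on the plus strand and holds a CCAAT box at its outer end and a TATAAA 7 bases before the listed start.
Afp: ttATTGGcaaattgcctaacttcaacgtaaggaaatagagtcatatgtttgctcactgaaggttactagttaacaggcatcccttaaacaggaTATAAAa

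Of 46 measured members of this list, 14 were called higher and 0 lower. The apolipoproteins Apoa1 (1.47), Apoa2 (1.22), Apoa4 (1.27) and Apoe (0.85), which carry lipid in the blood, were among them. So were the fibrinogen chains Fga (1.25) and Fgb (0.53), the protease inhibitors Serpina1b (1.31) and Spink1 (1.22), the calcium-binding protein S100g (1.60) and the selenium carrier Selenop (1.48). The calls of Apoa1 (adjusted p = 0.0437) and Apoe (adjusted p = 0.0252) were lost when any one of 9 and of 8 arrays was left out, with adjusted p up to 0.116 (without day 21 array 1) and 0.0727 (without day 15 array 2). By step the list median moved most from day 4 to day 8, by 0.40, against 0.13 and 0.08 in the later steps. On single arrays the median was 0.47 and 0.87 on day 8 arrays 2 and 3, both of set 2. It was 0.09 on day 8 array 1, of set 1, and -0.01 to 0.15 on the day 4 arrays. Set 2 holds more of the day 8 arrays than of the day 4 arrays, and its part in this step was not tested. The steps differ in size from those of the matrix list, and that difference was not tested either. The list's count was 9 without day 15 array 2, 8 without day 21 array 1 and 9 without day 21 array 2. Within set 1, 27 members were called, and after quantile normalization 7. The list median of 0.46 was 0.65 within set 1 and 0.09 within set 2. The early range of the list's median by array was -0.01 to 0.87, with the highest value on day 8 array 3, and the late range was 0.29 to 0.85, with the lowest on day 15 array 3. The endoderm transcription factors Sox17 (0.05, adjusted p = 0.879) and Gata6 (0.05, adjusted p = 0.849) were not called.

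Complement and clotting factors, liver products for the most part, had 9 of 33 higher and 0 lower, with a median of 0.18. The called members were prothrombin F2 (1.07), factor X F10 (0.57), the thrombin inhibitors Serpinc1 (0.86) and Serpind1 (1.26), the complement genes C1qb (0.56), Cfi (0.76) and Cfb (0.92), the complement inhibitor Cd55 (0.90), and Clu (1.05), a secreted chaperone. Clu was -0.28 through 0.24 to 0.91 early and 0.82 through 1.43 to 1.84 late (adjusted p = 0.00283). F2 was near ES on 4 early arrays and at 0.83 and 1.57 on day 8 arrays 2 and 3, and its call (adjusted p = 0.0396) was lost when any one of 9 arrays was left out, with adjusted p up to 0.105 without day 15 array 2. Serpind1 (adjusted p = 0.0364) was lost likewise when any one of 9 arrays was left out, with adjusted p up to 0.0966. The list had 5 called without day 8 array 1, day 8 array 2, day 15 array 1 or day 15 array 2.

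Simple epithelium was represented by its keratins, filament proteins that endoderm also makes. Krt8 was -0.03 through 0.30 to 1.20 early and 1.58 through 1.69 to 2.01 late, with no overlap, and rose by 1.23 ± 0.16 (adjusted p = 9.76e-04). Krt18, its partner, rose by 1.15 ± 0.22 (adjusted p = 0.0108) with overlapping ranges, since day 8 array 3 stood at 1.53 and day 15 array 3 at 1.10. The Krt18 difference was 0.65 after quantile normalization (adjusted p = 0.0793) and 0.80 after scaling (adjusted p = 0.0596), and the call also ended without a day term (adjusted p = 0.0502). Krt19 was at 1.12 to 1.27 on all 6 late arrays and at -0.53 to 1.15 early, and rose by 1.13 ± 0.15 (adjusted p = 0.00112). The tight junction gene Cldn7 (0.66) and the annexin Anxa3 (0.30) brought the count to 5 of 33, with 0 lower. It was 3 without day 4 array 1, day 8 array 1, day 8 array 2, day 15 array 1, day 15 array 2 or day 21 array 1, and 11 within set 1. Cdh1, the adhesion protein of epithelia and of ES cells, differed by -0.03 (adjusted p = 0.908).

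Among heart muscle genes the largest differences were those of the atrial myosin light chains. Myl4 was -0.11 through -0.01 to 0.32 early and 0.35 through 1.60 to 2.28 late. The late low was day 21 array 3, and 0.79 on day 15 array 3 came next, both of set 2. The difference was 1.40 ± 0.29 (adjusted p = 0.0142), 1.94 within set 1 and 0.49 within set 2. Myl7 rose by 1.39 ± 0.25 (adjusted p = 0.0071) and Tpm1 was the third call, while Tnnt1, the slow skeletal troponin T, was lower (-0.41). Of 50 measured members 3 were higher (6.0%) and 1 lower (2.0%), against 2.98% and 2.76% of all features. The list median was 0.06. The higher count was 7 without day 15 array 3, and 5 without day 4 array 2 or day 21 array 3. Myl2, the ventricular light chain, was at 1.16 to 1.59 on the 4 late arrays of set 1 and at 0.04 on both of set 2, and was not called (0.91 ± 0.28, adjusted p = 0.0853). Actc1, cardiac actin, was at 0.43 (adjusted p = 0.0563).

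Among blood genes, the embryonic globin Hba-x was 1.06 to 1.75 on the late arrays of set 1 and 0.38 and -0.08 on those of set 2. Its difference was 1.04 ± 0.27 (adjusted p = 0.0423), 1.52 within set 1 and 0.12 within set 2, and the call was lost when any one of 10 arrays was left out, with adjusted p up to 0.113 without day 15 array 2. Hbb-y, another embryonic globin, was at 1.15 ± 0.35 and was not called (adjusted p = 0.0821). Hbb-b2 (0.83) and the platelet chemokine Pf4 (1.17, adjusted p = 0.00391) were called higher, and the red cell genes Klf1 (-0.35), Tfrc (-0.42) and Car2 (-0.60) lower, so the 30 measured members gave 3 calls each way. Those 3 lower calls became 1 without day 4 array 2, day 8 array 1, day 8 array 2, day 15 array 1, day 15 array 2, day 21 array 1 or day 21 array 2, and the 3 higher became 6 without day 15 array 3.

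Macrophage genes had 7 of 32 higher and 0 lower, with a median of 0.17. Fcgr3, an antibody receptor, was -0.01 to 0.19 on 5 early arrays with 1.08 on day 8 array 3, and 0.62 to 1.42 late, a rise of 0.81 ± 0.16 (adjusted p = 0.0127). The adaptor Tyrobp (0.47), Fcer1g (0.43), the mannose receptor Mrc1 (0.72), C1qb (0.56), the lysosomal protease Ctss (1.05) and the oxidase subunit Cyba (0.68) were the other called members. Ctss (adjusted p = 0.0325) was lost when any one of 7 arrays was left out, with adjusted p up to 0.0845 without day 15 array 1. In the lysosome list 4 of 34 were higher: Lamp2, a membrane protein (1.05, adjusted p = 0.00105), the protease Ctsb (0.80, adjusted p = 0.0179, and 0.0566 without day 15 array 2), Ctss and Grn (0.66). That count was 1 without day 21 array 1, 8 without day 15 array 3, 2 without day 4 array 1, day 8 array 1 or 2, or day 15 array 1 or 2, and 17 within set 1. Its median of 0.20 was 0.46 within set 1 and -0.02 within set 2. Of 38 MHC class I and interferon genes 2 were higher and 2 lower, against 2.98% and 2.76% of all features, and 0 were lower within set 1, after quantile normalization, or without day 4 array 1 or 3, day 8 array 3, day 15 array 2 or day 21 array 1. B2m, the invariant light chain of class I, rose by 0.96 (adjusted p = 0.0158) and Usp18, an interferon-induced protease, by 1.02 (adjusted p = 0.00395), while Psmb10 (-0.56) and Erap1 (-0.33), which prepare peptides for class I, were lower. B2m was not called within set 1, nor after quantile normalization (adjusted p = 0.0733) or scaling (adjusted p = 0.0627). The lower count was 1 without day 8 array 2, day 15 array 1 or day 21 array 2. The higher count was 4 without day 21 array 3.

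Vessel genes had 4 of 40 higher, led by Nrp1, a receptor for vascular growth factors and semaphorins. It was -0.37 through -0.06 to 0.13 early and 0.05 through 2.26 to 2.64 late. Day 15 array 3 was the 1 late array at the early level, and the other 5 lay at 2.12 or above. The difference was 2.03 ± 0.32 (adjusted p = 0.00345). Icam2, an adhesion protein (0.86), Sox18, a transcription factor of vessels (0.66), and Ednrb, the endothelin receptor (0.78), were the others. Ednrb (adjusted p = 0.0435) was lost when any one of 10 arrays was left out, with adjusted p up to 0.115 without day 15 array 2. The list had 2 called without day 8 array 1, day 15 array 1, day 15 array 2, day 21 array 1 or day 21 array 2. The defining endothelial genes Pecam1 (0.09), Kdr (0.23) and Cdh5 (0.13) were not called.

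Of Wnt, BMP, TGF-beta and Notch genes 8 of 81 were higher and 0 lower. Ligands among them were Bmp4 (0.91, adjusted p = 0.0012), which patterns mesoderm, Tgfb2 (1.13, adjusted p = 0.0068) and Wnt2 (0.50). Bmp4 was below ES on all 6 early arrays, at -0.69 to -0.22, and above it on all 6 late arrays, at 0.18 to 0.94. The Wnt receptor Fzd2 (0.56), the Notch ligand-like Dlk1 and the targets Id2 (0.76), Id3 (0.77) and Ccn4 were also called. Ccn4, a secreted target of Wnt signalling, was -2.16 on day 8 array 3, -0.32 to 0.07 on the 5 other early arrays and 0.01 to 2.49 late, with a difference of 1.78 ± 0.35 (adjusted p = 0.0105). Of early mesoderm genes 5 of 39 were higher: Bmp4, Foxf1 (0.47), Snai2 (0.42), Isl1 (0.48) and Tcf21 (0.79), transcription factors of visceral and heart mesoderm and of migrating cells. Isl1 (adjusted p = 0.0449) and Tcf21 (adjusted p = 0.0346) were each lost when any one of 10 arrays (Isl1) or 9 arrays (Tcf21) was left out, with adjusted p up to 0.115 and 0.0945 without day 15 array 2. The list kept 1 to 3 calls without any single array other than day 15 array 3, without which it had 7.

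Other tissue lists had few calls. Neural genes had 3 of 54 higher (Sox4 0.72, Dpysl3 0.53 and Nnat), and 6 without day 15 array 3, against 2.98% of all features. The 1 lower was Stmn2, a tubulin-binding protein of neurons. Stmn2 was -1.64 through -0.39 to -0.06 early and -1.92 through -1.79 to -1.64 late, a difference of -1.11 ± 0.16 (adjusted p = 0.0019). Fabp7, the fatty acid carrier of neural progenitors, was at 0.96 (adjusted p = 0.0572) and the transcription factor Nr2f1 at 0.83 (adjusted p = 0.0524). In lipid handling, the fatty acid carriers Fabp4 (1.02) and Fabp5 (0.71) and the lipase Lpl (0.65) rose with Apoe, and the muscle type Fabp3 (-0.50) was lower. That list had 4 of 25 higher, and 2 without day 4 array 1, day 8 array 1 or 2, day 15 array 1 or 2, or day 21 array 1 or 2. Of retinoid and steroid genes the glucocorticoid-converting enzymes Hsd11b1 (0.35) and Hsd11b2 (1.05, adjusted p = 0.00105) were higher. They were 2 of 30 (6.7%), against 2.98% of all features. Cyp26a1, which breaks down retinoic acid, was at 1.42 to 1.76 on the day 8 arrays and between 0.001 and 0.97 late, and was not called (-0.52, adjusted p = 0.174). Of 32 stress response genes 1, Asns, was lower (-0.39), a share of 3.1% that lies near the 2.76% of all features. Among 31 Hox genes, 24 trophoblast genes and 26 bone and cartilage genes limma called 0. The medians of these lists were -0.01, 0.06 and 0.03, and the largest differences of named members were those of Prl2c2 (-0.67 ± 0.54), Rhox6 (0.60 ± 0.18), Ihh (-0.38 ± 0.23) and Dmp1 (0.31 ± 0.43).

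**Figure D5:**
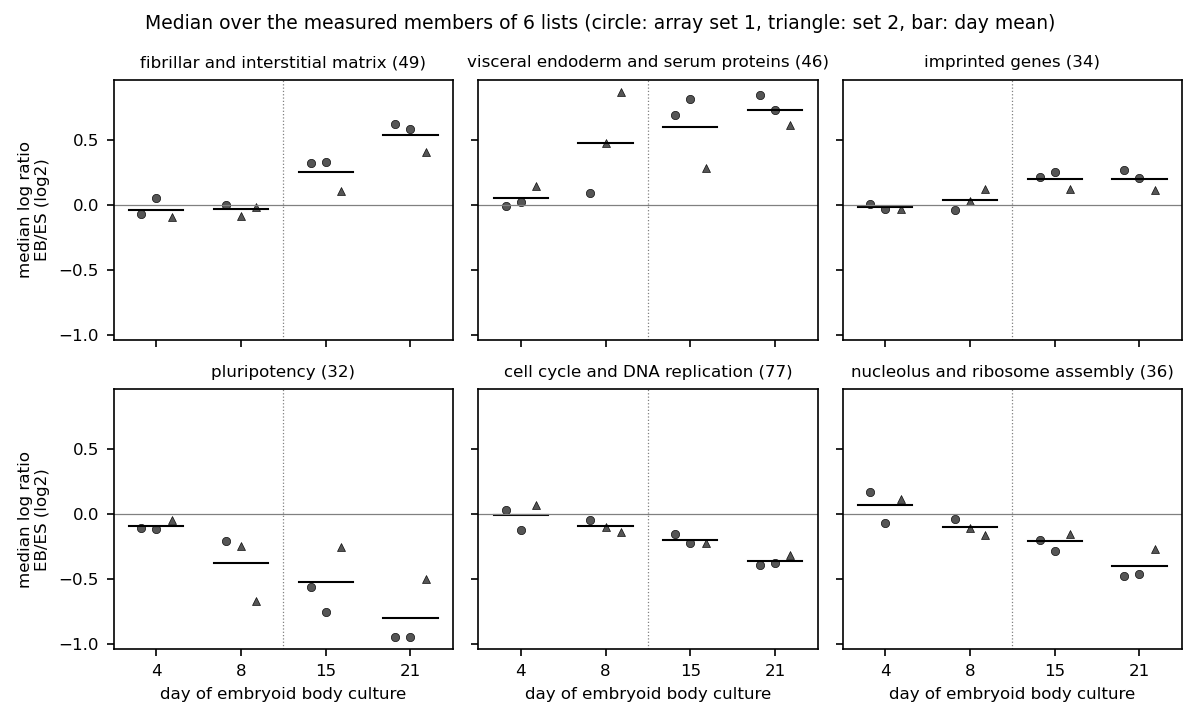
Median log ratio of EB over ES (log2) over the measured members of 6 lists on each of the 12 arrays, by day of culture, with circles for set 1, triangles for set 2 and bars for day means. The matrix median parts late from early, the serum protein median is already 0.87 on day 8 array 3, and the pluripotency median lies between -0.95 and -0.26 late, with the highest late value on day 15 array 3.

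Of 32 measured pluripotency genes 16 were lower late and 0 higher, 2 had a difference above 0, and the list median was -0.51. Dppa5a, an RNA-binding protein of ES cells and early embryos, was -1.06 through -0.40 to -0.05 early and -2.30 through -1.95 to -1.30 late, with no overlap, and differed by -1.44 ± 0.13 (adjusted p = 1.13e-04). Zfp42, the ES cell marker also called Rex1, was -1.60 to -0.27 early and -2.55 to -1.38 late. It was at -0.58 or above on the day 4 arrays and at -2.51 or below on those of day 21, and the ranges overlapped through day 8 array 3 and day 15 array 3. Its difference was -1.30 ± 0.13 (adjusted p = 2.42e-04). Nr0b1, a nuclear receptor of the ES cell circuit, was 0.095 to 0.335 at day 4 and -2.24 to -1.94 at day 21, with a late minus early difference of -1.47 ± 0.20 (adjusted p = 0.00117). Fbxo15, a target of Pou5f1 and Sox2, differed by -1.34 ± 0.17 (adjusted p = 8.04e-04), with day 8 array 3 (-1.10) apart from the other early arrays (-0.47 to -0.16).

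The 3 core factors had smaller differences. Nanog was -0.89 through -0.32 to 0.37 early and -2.16 through -1.20 to -0.18 late (difference -0.88 ± 0.18, adjusted p = 0.0136, and 0.0733 after quantile normalization and 0.106 without a day term). Pou5f1 was -0.69 through -0.04 to 0.20 early and -1.17 through -0.64 to -0.48 late (difference -0.60 ± 0.14, adjusted p = 0.0309). Sox2 was -0.85 through -0.22 to -0.01 early and -1.24 through -0.86 to -0.50 late (difference -0.49 ± 0.12, adjusted p = 0.0363). For each of the 3 the ranges overlapped. Pou5f1 was lost when any one of 6 arrays was left out and Sox2 when any one of 8 was, with adjusted p up to 0.0869 (without day 21 array 1) and 0.1001 (without day 15 array 2). The other called members were Gdf3 (-1.14), a TGF-beta ligand, the Polycomb gene Phc1 (-1.07), Dnmt3b (-1.03), which methylates DNA de novo, the ubiquitin ligase Mkrn1 (-1.02), Dppa3 (-0.99, lost when any one of 8 arrays was left out, with adjusted p up to 0.0983 without day 21 array 1), Mybl2 (-0.88), Hells (-0.77), Nodal (-0.47) and Utf1 (-0.43). Phc1 had the smallest adjusted p of these, at -0.85 to -0.15 early and -1.90 to -1.41 late (adjusted p = 3.02e-04). The list had 10 called without day 21 array 1, 21 within set 1, and 16 in the fit that held the array set as a term.

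Germ cell genes had 5 of 25 lower and 0 higher, with a median of -0.25. Sycp3, a protein of the meiotic chromosome axis, was above ES on all 6 early arrays, at 0.23, 0.31 and 0.48 on the 3 arrays of day 4 and 0.76 to 0.96 at day 8, and below ES on all 6 late arrays, at -1.43 to -0.17. The difference was -1.35 ± 0.15 (adjusted p = 3.62e-04). Rnf17, a germ cell protein of small RNA bodies, differed by -1.06 ± 0.22 (adjusted p = 0.0158), and Stk31 (-0.79), Brdt (-0.31) and Dppa3 were the other members called. The count was 2 without day 4 array 1, day 8 array 2, day 15 array 2 or day 21 array 1, and 3 without day 4 array 3, day 15 array 1 or day 21 array 2.
The Sycp3 stretch lies at chr10:88459487-88459586 on the plus strand and holds 2 copies of CACGTG, the E-box bound by MYC-family and related factors, and a GC box (GGGCGG, read as CCGCCC).
Sycp3: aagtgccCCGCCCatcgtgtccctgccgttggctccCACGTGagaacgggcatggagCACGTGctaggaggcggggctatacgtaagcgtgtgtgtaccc
At least 1 CACGTG was present in 3.2% and GGGCGG in 25.2% of the 27025 promoters in that window. These matches are a description of letters, not of sites in use.

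In the list of cell cycle and DNA replication genes 20 of 77 were lower late, against 2.76% of all features. Late values lay wholly below the early ones for 12 members, against 1.69% of all features. A difference above 0 was found for 10 members. The list median was -0.26. Orc1, which marks replication origins, was -0.19 to 0.09 early and -1.20 to -0.58 late (difference -0.75 ± 0.08, adjusted p = 2.91e-04). Ccne1 (-0.64), the cyclin that opens DNA synthesis, Gmnn (-0.60), Cdc45 (-0.53), Pola1 (-0.47), Mcm3 (-0.42), Mcm5 (-0.34), Pcna (-0.32), Rfc5 (-0.54) and Rpa1 (-0.51) act in replication. Bub1 (-0.58), Mad2l1 (-0.52), Top2a (-0.50) and Ttk (-0.41) act in mitosis. Ccnd2, a cyclin of the first gap phase, went the other way. It was 0.25 through 0.64 to 1.26 early and 1.19 through 1.83 to 2.13 late, and rose by 1.13 ± 0.15 (adjusted p = 0.00112). Mki67, the usual marker of dividing cells, differed by 0.06 (95% interval -0.12 to 0.24, adjusted p = 0.778). The lower count was 12 without day 4 array 1, day 8 array 2 or day 21 array 1, and 13 without day 4 array 3, day 15 array 2 or day 21 array 2. It was 8 after quantile normalization.

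Of 28 inhibitors of the cycle and p53 targets 3 were higher and 1 lower, the latter near the 2.76% of all features. Cdkn1a, which stops the cycle downstream of p53, was 0.001 to 0.17 on 5 early arrays with 0.49 on day 8 array 3, and 0.51 to 1.14 late, and rose by 0.64 ± 0.12 (adjusted p = 0.00747). Cdkn1c and Tob1 (0.48) were also higher, and Ccng1, another p53 target, was lower (-0.62, adjusted p = 0.00649). The list median was 0.008, and 1 member was called higher after quantile normalization.

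Ribosome-building genes were lower late too. In the nucleolus 10 of 36 measured members were lower and 0 higher, with a median of -0.28. The rRNA-processing protein Wdr12 was -0.13 to 0.30 early and -0.93 to -0.34 late (difference -0.64 ± 0.10, adjusted p = 0.00285). Ebna1bp2 (-0.62, adjusted p = 0.0133), Dkc1 (-0.67), Nop56 (-0.57), Nop58 (-0.54), Ncl (-0.52) and Npm1 (-0.51) were among the others, which assemble or chemically modify ribosomal RNA. Dkc1 (adjusted p = 0.035) was lost when any one of 8 arrays was left out, with adjusted p up to 0.0863 without day 8 array 1. The count was 5 without day 4 array 1, day 8 array 1, day 8 array 2, day 15 array 2, day 21 array 1 or day 21 array 2, and 6 without day 4 array 3. Of 55 ribosomal protein genes 1, Rpl6, was called lower (1.8%, against 2.76% of all features). Its difference was -0.46 (adjusted p = 0.0491), and the call was lost without any single array except day 8 array 3. The median of these genes was -0.15, with 6 of 55 above 0. Rpl22 (-0.45) and Rpl7a (-0.47) had adjusted p of 0.0623 and 0.108.

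Among 40 genes of mitochondrial respiration 4 were lower and 0 higher, with a median of -0.19: Cox7c (-0.68, adjusted p = 0.00463) and Uqcr10 (-0.43), small subunits of the respiratory chain, and Cyc1 (-0.55) and Cycs (-0.38), its cytochromes. In glycolysis Ldhb, a lactate dehydrogenase subunit, differed by -0.75 ± 0.10 (adjusted p = 0.00159), with -0.63 to 0.17 early and -1.17 to -0.86 late. Pfkp (-0.44) and Aldoc (-0.35) were lower and Eno3, the muscle enolase, was higher (0.65). That made 3 of 29 lower (10.3%) and 1 higher (3.4%), against 2.76% and 2.98% of all features. The calls of Pfkp (adjusted p = 0.0371) and Eno3 (adjusted p = 0.031) ended when any one of 10 and 8 arrays was left out, with adjusted p up to 0.101 and 0.0872 without day 15 array 2. The 3 became 1 without day 4 array 3, day 8 array 1 or 2, day 15 array 1 or 2, or day 21 array 1 or 2. The median of the glycolysis list was -0.11, and turned to 0.10 within set 1. Gapdh differed by -0.11 (adjusted p = 0.768), with -0.61 on day 4 array 2. Actb rose by 0.46 (adjusted p = 0.0371), a call lost when any one of 10 arrays was left out, with adjusted p up to 0.102 without day 15 array 2. Of 45 chromatin genes 5 were lower, Dnmt3b, Hells, Phc1, the Polycomb subunit Eed (-0.54) and the histone methyltransferase Suv39h2 (-0.44), and Ring1 (0.38) was higher. The shares were 11.1% lower and 2.2% higher, against 2.76% and 2.98% of all features. The 5 became 3 without day 4 array 3, day 8 array 1 or 2, day 15 array 1 or 2, or day 21 array 1 or 2.

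The largest decrease belonged to a gene outside these lists. Pycard, the adaptor protein of inflammasomes, was -0.64 through -0.19 to 0.72 early and -2.15 through -1.68 to -1.37 late, with no overlap, and differed by -1.65 ± 0.21 (95% interval -2.12 to -1.19, adjusted p = 0.00105). Upp1, which splits uridine, was -0.87 to 0.16 early and -2.05 to -1.44 late (difference -1.45 ± 0.15, adjusted p = 2.62e-04). Prps1 makes the sugar phosphate from which nucleotides are built, and was -0.85 to -0.25 early and -1.47 to -1.24 late (difference -0.81 ± 0.10, adjusted p = 5.52e-04). The glutathione transferase Gsta4 was -0.20 to 0.47 early and -1.05 to -0.33 late (difference -0.90 ± 0.08, adjusted p = 7.94e-05). Gstp1, of the same enzyme family, was 0.05 to 0.86 early and -0.48 to -0.04 late (difference -0.81 ± 0.12, adjusted p = 0.00203). In the same family of enzymes the mu class genes Gstm1 (1.16) and Gstm2 (0.46) and the alpha class gene Gsta3 (0.45) were higher, and the theta class gene Gstt2 (-0.55) was lower. The lipid enzymes Acp6 (-1.08) and Plaat3 (-0.98), the nucleolar protein Lyar (-0.81), the exosome nuclease Dis3 (-0.59), the proteasome chaperone Psmg1 (-0.82) and 1700013H16Rik (-0.90) were the other decreases with no overlap that ranked highest or were called from day 8 to day 15. Psmg1 (adjusted p = 0.0305) was lost when any one of 6 arrays was left out, with adjusted p up to 0.0797 without day 8 array 1. S100a4, a calcium-binding protein of motile cells, averaged well below ES late (-2.21 to -1.48) and ranged from -2.28 to 0.84 early, so it was not called (-0.89 ± 0.36, adjusted p = 0.187).

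Increases outside the tissue lists included Itm2a, a membrane protein of developing cartilage and muscle, which was -0.36 through -0.04 to 0.19 early and 0.73 through 2.03 to 2.36 late, with 0.73 on day 15 array 3. Its difference was 1.94 ± 0.19 (adjusted p = 1.96e-04). Ccdc80, a secreted matrix-binding protein, was -0.52 to 0.06 early and 0.22 to 2.25 late (difference 1.76 ± 0.29, adjusted p = 0.00419), with the low of 0.22 again on day 15 array 3. Vnn1, which recycles pantothenic acid, was -0.57 to 0.16 early and 0.35 to 3.05 late (difference 1.64 ± 0.27, adjusted p = 0.00445).

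A few genes stood on opposite sides of ES early and late. Taking 0.3 as the least distance of either mean from ES, a limit chosen after the values were seen, 10 of the 287 named genes called higher were below ES early and above it late. They were Col5a2 (-0.72 to 1.45), Tagln (-0.75 to 0.49), Vim (-0.71 to 0.65), Ccn4 (-0.47 to 1.32), Anxa6 (-0.44 to 0.85), Bmp4 (-0.42 to 0.49), Col1a2 (-0.37 to 1.89), Copz2 (-0.34 to 0.42), Adam1a (-0.32 to 0.37) and 6030468B19Rik (-0.30 to 0.40), written as early mean to late mean. Of the 269 named genes called lower, 4 crossed in the other direction: Sycp3 (0.60 to -0.76), Dnmt3b (0.38 to -0.65), Rnf17 (0.36 to -0.70) and Ccng1 (0.31 to -0.31). For Dnmt3b the early arrays ran from -0.24 to 0.98, and the late ones from -1.51 to -0.17. The Dnmt3b call (adjusted p = 0.0239) was lost when any one of 8 arrays was left out, with adjusted p up to 0.0684 without day 21 array 1.

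Markers of the cell types an EB can hold gave the following sums of log ratios, in which 0 would be the ES level. The markers, many of them named above, were chosen with earlier results of these data known, so their sums and calls are a description only. ES cell and yolk sac genes had also been used to choose the reading of the ratio, so their direction supports nothing. The 6 ES markers summed to between -6.73 and -0.29 on the early arrays and between -10.8 and -5.81 on the late ones, and all 6 were called lower. The 6 mesenchyme markers summed to between -2.17 and 0.91 early and between 6.78 and 11.01 late, and all 6 were called higher. For visceral endoderm the 6 markers summed to between -0.85 and 12.7 early and between 10.8 and 15.4 late, with 3 called. The 4 measured heart markers had early sums of -0.38 to 0.60 and late sums of 1.20 to 4.62, with 2 called, and Nppa, a hormone of the atria, at -0.07 between late and early. The 4 epithelial markers had sums of -0.65 to 3.90 early and 3.80 to 5.44 late, with 3 called. Of red cell, macrophage and endothelial markers 1 of 3, 1 of 2 and 0 of 3 were called, and of 4 neuronal markers none was higher and 1, Stmn2, lower. The part of the mix of cells in any gene's difference was not tested.

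Within the array sets the sizes of the named calls differed. Their sign did not, but the genes were chosen for their difference on these same arrays, which largely fixes it. Set 1 holds 1 array of day 8, and set 2 holds 1 array each of days 4, 15 and 21. A fit within either set, and most of all within set 2, therefore has little spread to test against. The differences of Afp, Trf, Myl4 and Hba-x were smaller within set 2 than within set 1, and that contrast was not tested. With the set as a term in the fit of all 12 arrays, all 98 named calls held. What step the sets mark cannot be read from the labels.

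The way the arrays were brought to one scale decided some calls near the threshold. Quantile normalization and scaling each ended 23 of the 98 named calls, 20 of them the same: Actb, Apoa1, Apoe, Apom, B2m, Ctsb, Ctss, Dkc1, Dppa3, Ednrb, F2, Isl1, Krt18, Mmp14, Pfkp, Psmg1, Rpl6, Sox2, Tcf21 and Tinagl1. Quantile normalization also ended Cdkn1c, H19 and Nanog, and scaling ended Afp, Hba-x and Pou5f1. The fit with 2 groups and no day term ended 13, among them Fabp4 and Serpind1, which both scalings had left in place.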

How the data were processed

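Each array compared RNA of undifferentiated ES cells with RNA of EBs of 1 day, 3 arrays a day, and groups were taken from the titles. Per the labels' protocols, total RNA was made into double-stranded cDNA, from which dye-bearing RNA was transcribed. The deposited values, 1 per feature and array, are log ratios that the authors had normalized, and they were read as log2. The normalization, background correction, filter on dim spots, scanner and array design are not given in the sources used here. Spot intensities were not analysed here. Column medians lay between -0.0018 and 0.0106. How many arrays there were sets the precision.

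Gene symbols come from the platform annotation in GEO and may be outdated: 10043 features had 1 symbol, 29 several and 1448 none, and 10025 of the symbols matched RefSeq's table of GRCm38.p6 by Entrez ID. Probes of a gene were averaged. All 12 arrays were fitted in limma 3.58.1 (R 4.3.3) with a mean for each day (8 residual and 4.35 prior degrees of freedom), and the late days' mean minus the early days' mean was tested two-sided with Benjamini-Hochberg adjustment over 10689 features at 0.05. Data were also simulated as independent normal noise with each feature's own spread. There 62.7% of features shifted by 0.5 and 95.5% of those shifted by 1 were called in this comparison, as were 7 unshifted features. The simulation held no array sets and no outlying arrays, so these shares need not hold on the real arrays. Lists are described by counts and medians only. Genes were named if among the 15 largest called differences each way without overlap, the members of a list that differed most (3 at most), up to 5 called each way in each step between days, or a marker, and other called list members are given by their difference alone. All 19 calls from day 8 to day 15 are listed. Genes outside the rule, such as Gstm1 and the genes that crossed the ES level, were chosen after their values were seen. Comparison, lists and names were chosen with earlier results of these data known. Alternatives left out each array, used the array set or the replicate number as a term, each set alone, quantile normalization, scaling, array weights, a robust prior, named features only, 2 groups without a day term, and each probe on its own. Promoter stretches are RefSeq's of GRCm38.p6, matched by symbol for 25 of the 30 genes with the largest differences without overlap.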

Additional observations from a re-analysis of the deposited data

Results flagged for a closer look

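For 22 of 250 sets of 6 arrays (a named gene on the early or on the late arrays), 1 array lay far from the 5 others by Dixon's ratio, and chance alone flags about 1 set in 20. The arrays concerned were mostly day 8 array 3 and day 15 array 3, with 7 flags each. Day 8 array 3 was low for Ccn4 (-2.16), Fabp4 (-1.05) and Fbxo15 (-1.10), and high for Cdkn1a (0.49), Eno3 (0.27), Fcgr3 (1.08) and Igfbp1 (0.85). Without it the late minus early difference was 1.46 for Ccn4, 0.87 for Fabp4, -1.47 for Fbxo15, 0.69 for Cdkn1a, 0.70 for Eno3, 0.98 for Fcgr3 and 1.78 for Igfbp1, each still called. Day 15 array 3 was low for Col4a5 (0.055), Col5a1 (0.36), Col5a2 (-0.26), Itm2a (0.73), Nrp1 (0.047) and Vim (-0.047), and high for Rhox6 (1.62), a homeobox gene of placenta and germ cells. Without that array the difference was 0.51 for Col4a5, 1.83 for Col5a1, 2.49 for Col5a2, 2.15 for Itm2a, 2.40 for Nrp1 and 1.47 for Vim, each still called. Rhox6, not called over all arrays (0.60, adjusted p = 0.0747), passed without it at a smaller difference (0.42, adjusted p = 0.0466).

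The remaining flags fell on other arrays. Afp was 4.10 on day 21 array 1, and Ihh, a signalling ligand of endoderm, -1.45 on day 15 array 2. Col4a5 was 0.16 on day 4 array 1 and Col5a1 -0.45 on day 8 array 1. On day 4 array 2, Gapdh was -0.61 and Tagln -0.39. On day 4 array 3, Vnn1 was -0.57 and Dmp1, a phosphoprotein of mineralised matrix, -2.34. Without its flagged array the difference of Dmp1 was -0.19 in place of 0.31, and neither was called (adjusted p = 0.678 and 0.778). The calls of Afp (adjusted p = 0.0226), Col4a5 (0.0175), Col5a1 (0.00149), Tagln (6.10e-04) and Vnn1 (0.0131) held without the flagged array.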

How the results depend on the processing

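No named difference that was called changed sign under any alternative, as the choice of these genes largely fixes. Among the 98 named calls, 73 held whichever of the 12 arrays was left out. Late minus early called 613 features, 323 to 882 with an array left out. The higher calls were 318 (166 to 547) and the lower 295 (153 to 335). Day 8 minus day 4 gave 0 (0 to 6), day 15 minus day 8 gave 19 (4 to 126) and day 21 minus day 15 gave 1 (0 to 1). Set 1 alone gave 959 calls, 621 higher, with 159 from day 8 to day 15 and 0 from day 15 to day 21. Set 2 alone has a single array of each of days 4, 15 and 21, so its calls are not counted. Quantile normalization gave 321 (175 higher, 146 lower), 2 from day 4 to day 8 and 0 from day 15 to day 21. Scaling gave 335 (186 higher, 149 lower) and 0 in the last step. Both kept 75 of the 98 named calls. Array weights gave 1679 (902 higher, 777 lower), with 78 in the first step and 582 in the middle one. The set as a term gave 713, a robust prior 595, named features only 611, each probe on its own 644, and 2 groups without a day term 521, which kept 85 of the named calls. The cause of these changes was not tested. The replicate numbers did not meet the rule for pairing, a correlation over 0.1 in every pair. Deviations of the 18 same-number pairs correlated by -0.14 to 0.39, 8 of them over 0.1. For 10 of 12 arrays the closest array bore the same number. Number and array set largely coincide: array 1 of every day was in set 1 and array 3 of every day in set 2. Day 8 array 2 and day 15 array 2 were closest to an array of another number in their own set. Whether the likeness follows the number or the set was not tested, and a term for one overlaps a term for the other. With the replicate number as a block 597 features were called, 297 higher, 93 of the 98 named calls held (Dkc1, F2, Isl1, Mmp14 and Pfkp did not), and day 21 minus day 15 had 0. The number of arrays and the absence of spot intensities limit what small differences can show.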
